A study of Mus musculus with 3 samples.

Results

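Ptgds, Lynx1, Bc1 and Dynll2 are 4 of the 32285 mouse genes listed in the spatial transcriptome files, of which 18784 had a read in any section. They were chosen by measured values, namely a large drop in level from the sham section to the section of ischemia and reperfusion (I/R). The I/R over sham ratio is therefore a description of the choice and carries no test. All 4 symbols were found in each of the 3 matrices.

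The data are Visium libraries, in which barcoded capture spots under a cryosection of 10 µm record the transcripts of the tissue above them. Each spot covers several cells, often of more than 1 type. There was 1 section of heart for each of the 3 conditions, all from C57BL/6 mice aged 8 weeks. The sham mouse received vehicle by gavage for 7 days and then had the same surgery without ligation of the artery. The I/R mouse received the same vehicle, had the left anterior descending coronary artery tied for 30 min and was studied after 24 h of reperfusion. The SBP mouse, labelled MUSKARDIA, had the same ligation and reperfusion after 7 days of Shexiang Baoxin Pill, a traditional Chinese medicine. No condition has a replicate, so no p-value is given, and every interval below is a 95% interval of counting error only. A lower level in a spot can come from fewer cells of a type or from less RNA per cell, and these cannot be told apart here.

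The level of a gene is its number of unique molecular identifiers (UMIs) per 1000000 UMIs of the section (CPM). Spots needed at least 200 detected genes to be kept, and 1960 to 2234 spots per section and 21631280 to 30238530 UMIs remained. The I/R section was the deepest, with a median of 14672 UMIs per spot against 10645 in sham and 10653 in SBP. The mitochondrial genes held 44.3% to 48.6% of UMIs. All 10 cardiomyocyte markers were detected in every section, with a summed level of 49555 CPM in sham against 37264 in I/R and 45084 in SBP, as heart muscle would have. The sections shared 1207 to 1568 spot barcodes pairwise, which come from 1 common list of slide barcodes.

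The members have different roles. Ptgds encodes lipocalin-type prostaglandin D synthase, which converts prostaglandin H2 to prostaglandin D2 and is also secreted as a carrier of small lipids. Lynx1 encodes a membrane-anchored protein of the Ly6 family that dampens nicotinic acetylcholine receptors. Bc1 is a short non-coding RNA made by RNA polymerase III, best known from neurons, where it represses translation. Dynll2 encodes a light chain of the LC8 type, a small dimer that binds cytoplasmic dynein, myosin V and many other partners. Its paralog Dynll1 encodes a nearly identical light chain.

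In the mouse genome GRCm38, Ptgds (ENSMUSG00000015090) lies at chr2:25466709-25470046 on the minus strand. Lynx1 (ENSMUSG00000022594) lies at chr15:74747852-74753046 on the minus strand, and its nearest neighbour on that strand is Slurp2, 1159 bases away. Slurp2 had 1, 0 and 1 UMI in sham, I/R and SBP, so it added next to nothing to the region. Bc1 (ENSMUSG00000115783) is a single exon of 168 bases at chr7:144914470-144914637 on the plus strand. Dynll2 (ENSMUSG00000020483) lies at chr11:87979525-87987533 and Dynll1 (ENSMUSG00000009013) at chr5:115297110-115300999, both on the minus strand. None of these genes overlapped another gene of the annotation.

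The whole Bc1 transcript is shown because it has no coding sequence and because the libraries were primed on adenine tracts. Its 3 runs of at least 5 adenines are in capitals, the longest spanning bases 77 to 99 of the transcript, and 41.7% of its bases are adenine. Reads of Bc1 may be shared with copies of it elsewhere in the genome, so its counts are less certain than those of the other members.
Bc1: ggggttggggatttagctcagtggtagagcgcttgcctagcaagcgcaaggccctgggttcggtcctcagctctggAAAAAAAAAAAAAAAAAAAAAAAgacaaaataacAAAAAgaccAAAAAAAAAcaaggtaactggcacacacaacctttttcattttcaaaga

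The coding sequences of Dynll2 and Dynll1 are shown because their levels differed between sections in opposite directions. Each has 267 bases, and the 50 bases that differ are in capitals, which leaves an identity of 81.3%. Of the differences, 45 are at the third base of a codon and 5 at the first or second base.
Dynll2: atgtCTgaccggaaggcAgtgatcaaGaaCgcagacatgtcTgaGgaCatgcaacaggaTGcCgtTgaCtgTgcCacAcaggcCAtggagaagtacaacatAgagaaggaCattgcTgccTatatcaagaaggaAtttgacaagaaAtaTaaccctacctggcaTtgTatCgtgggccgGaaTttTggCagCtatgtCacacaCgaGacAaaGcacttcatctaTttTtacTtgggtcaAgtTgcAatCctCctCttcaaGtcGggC
Dynll1: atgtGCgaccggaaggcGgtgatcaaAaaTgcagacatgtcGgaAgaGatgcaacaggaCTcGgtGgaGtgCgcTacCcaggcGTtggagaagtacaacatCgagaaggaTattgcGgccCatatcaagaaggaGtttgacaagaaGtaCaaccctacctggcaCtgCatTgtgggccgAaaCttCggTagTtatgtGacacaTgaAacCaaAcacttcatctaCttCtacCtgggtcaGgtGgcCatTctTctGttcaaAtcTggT

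Ptgds had 466 CPM in sham (11697 UMIs) against 186 in I/R (5623 UMIs) and 255 in SBP (5508 UMIs). Sham was highest, I/R lowest and SBP between them, with no overlap of the counting intervals. The log2 ratio of I/R over sham was -1.32 (-1.37 to -1.28), a level 2.50-fold lower in I/R.

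Lynx1 had 109 CPM in sham (2730 UMIs) against 48.4 in I/R (1465 UMIs) and 74.7 in SBP (1615 UMIs). The order of the sections was that of Ptgds, at a lower level, and the counting intervals again did not overlap. Its log2 ratio of I/R over sham was -1.17 (-1.26 to -1.07), a level 2.24-fold lower.

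Bc1 had 130 CPM in sham (3276 UMIs) against 64.4 in I/R (1947 UMIs) and 114 in SBP (2474 UMIs). Here the SBP section stood close to sham, although the intervals of 126 to 135 CPM in sham and 110 to 119 CPM in SBP did not overlap. The log2 ratio of I/R over sham was -1.02 (-1.10 to -0.94).

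Dynll2 had 463 CPM in sham (11640 UMIs) against 232 in I/R (7016 UMIs) and 337 in SBP (7298 UMIs). The order was again sham, SBP and I/R, without overlap. The log2 ratio of I/R over sham was -0.998 (-1.04 to -0.955), just short of a 2-fold difference.

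**Figure D1:**
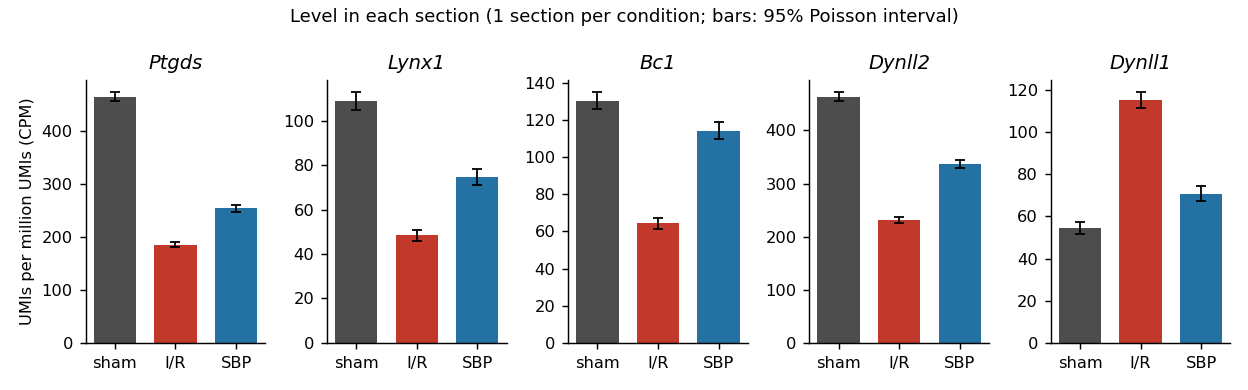
Level in CPM (y axes, each from 0) of the 4 members and of the paralog Dynll1 in the sham, I/R and SBP sections, with bars for the 95% Poisson interval of the UMI sum. The members are highest in sham and lowest in I/R, while Dynll1 is lowest in sham (54.5 CPM) and highest in I/R (115 CPM).

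Among the 884 genes that reached 100 CPM in sham or I/R, these ratios ranked 1 (Ptgds), 2 (Lynx1), 4 (Bc1) and 5 (Dynll2) from the lowest, and the median of those genes was 0.13. Of the 884 genes, 4, or 0.452%, were lower by 2-fold or more, 3 of them members, which the choice of members fixes. The other was Lars2, a mitochondrial leucyl-tRNA synthetase, at rank 3 with -1.14 (-1.18 to -1.10), and the next gene after Dynll2 was Fbxl22 at -0.98 (-1.04 to -0.91). Lars2 was also the highest of the genes ranked for SBP over I/R, at 1.38 (1.34 to 1.42). It had 554 CPM in sham against 252 in I/R and 656 in SBP, so I/R stood apart from both other sections. Lars2 and Fbxl22 were named after their values were seen.

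Summed markers of some cell types had the order of the members, though not always gene by gene, and those of others did not. All 10 markers of the cardiomyocyte list were lower in I/R than in sham, with log2 ratios from -0.53 to -0.17 and a median of -0.34. Summed lists of mesothelial, pericyte, fibroblast and endothelial markers had the order of the members too. Mesothelial markers had 140 CPM in sham against 78.4 in I/R and 96.3 in SBP. Pericyte markers had 455 against 345 and 419, and fibroblast markers 2047 against 1670 and 1795. Endothelial markers had 1579, 1414 and 1509 CPM. Smooth muscle markers had another order, with 427, 333 and 219 CPM. So did the list of clock genes with E-boxes and D-boxes, with 283, 213 and 411. Endocardial (79.4, 77.6 and 124), atrial (482, 1162 and 1402) and macrophage markers (449, 543 and 416) also had other orders. The same was true of neutrophil (28.3, 241 and 118) and red blood cell markers (2886, 4105 and 3860). Neuron (26.5, 37.8 and 29.5) and Schwann cell markers (84.8, 78.0 and 75.8) did not have the order of the members either. Gene by gene, 5 fibroblast markers were higher in I/R than in sham and 5 lower, and 5 endothelial markers were higher and 4 lower. Of the pericyte markers 2 were higher and 5 lower, and all 3 mesothelial markers with enough UMIs were lower. Counted per UMI of the cardiomyocyte list in place of all UMIs, a choice made after seeing the data, the log2 ratios of I/R over sham became -0.91 for Ptgds, -0.75 for Lynx1, -0.61 for Bc1 and -0.59 for Dynll2, so that none reached 2-fold. The spot depth also differed. The interquartile ranges of UMIs per spot of the 3 sections overlapped from 10924 to 13077 UMIs. This common range held 474 sham, 265 I/R and 389 SBP spots. The I/R ones were all below the median depth of their section, and the sham and SBP ones all above theirs. Among these spots the ratios were -1.01, -1.10, -0.90 and -0.86, in the same order, and Bc1 was then under 2-fold. The part of these factors in the lower levels was not tested.

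The SBP section was compared with I/R and with sham, which are the same sections that gave the ratio above. For SBP over I/R, the log2 ratio was 0.83 (0.74 to 0.92) for Bc1, 0.62 (0.52 to 0.73) for Lynx1, 0.54 (0.49 to 0.59) for Dynll2 and 0.45 (0.40 to 0.51) for Ptgds. All 4 were above the median of -0.059 of the 872 genes with at least 100 CPM in either section, but none reached 2-fold, as 0.459% of those genes did. Bc1 ranked 7 and Dynll2 20 from the highest, while Ptgds ranked 39 and Lynx1 was below the minimum of 100 CPM in both sections. Because the members were chosen for a low I/R level, these positive ratios are not independent of the choice.

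Against sham, SBP stayed lower for all 4 members. Its log2 ratio over sham was -0.87 (-0.92 to -0.82) for Ptgds, which ranked 3 from the lowest of 809 genes. It was -0.54 (-0.63 to -0.45) for Lynx1 at rank 10 and -0.46 (-0.50 to -0.42) for Dynll2 at rank 20. For Bc1 it was -0.19 (-0.27 to -0.11) at rank 107. None was lower by 2-fold, as 0.124% of the 809 genes were. Lynx1 entered this ranking only through its sham level, 109 CPM against 74.7 in SBP. Since the members were chosen for a sham level far above that of I/R, these ratios and ranks are not independent of the choice.

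The place of SBP between I/R and sham uses the levels by which the members were chosen, so it is not independent of the choice. The SBP level lay 24.6% of the way from I/R up to sham for Ptgds (21.7% to 27.4%). The share was 43.5% for Lynx1 (36.4% to 50.6%) and 45.5% for Dynll2 (41.6% to 49.5%), and these intervals overlapped. For Bc1 it was 75.7% (67.1% to 84.3%) over the whole section. In spots of the common range of UMI totals, a setting added after seeing the data, the share was 60.7% (41.4% to 79.9%) for Bc1, 58.1% (40.5% to 75.7%) for Lynx1, 40.6% (30.6% to 50.7%) for Dynll2 and 14.2% (5.33% to 23.0%) for Ptgds. The interval of Bc1 then overlapped those of Lynx1 and Dynll2, while that of Ptgds stayed below all of them. Per UMI of the cardiomyocyte list, the share for Bc1 was 89.5% (75.3% to 104%), without overlap with Lynx1 or Dynll2. Nor was there overlap with median-of-ratios scaling, at 71.2% (64.1% to 78.3%), or in spots of low Ankrd1, defined below, at 70.1% (61.4% to 78.7%). These settings too were added after seeing the data. For Malat1, a nuclear non-coding RNA, the SBP section stood at about the sham level, with 519 CPM in sham against 282 in I/R and 530 in SBP.

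The next question was whether the members came from a few spots. Spots were thinned to 6500 UMIs each so that sections of different depth could be compared, which kept 2102 sham, 1880 I/R and 1747 SBP spots and left out 132, 202 and 213 shallower ones. In sham, 94.8% of thinned spots held a Dynll2 UMI and 89.96% a Ptgds UMI. The share was 52.9% for Bc1 and 49.8% for Lynx1. The positions of the spots on the section were not used here.

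In I/R the share of spots with a UMI was 76.8% for Dynll2, 64.0% for Ptgds, 32.9% for Bc1 and 26.9% for Lynx1. In SBP it was 88.3%, 74.6%, 48.4% and 36.8%, in the same order. Every member had fewer positive spots in I/R than in SBP and fewer in SBP than in sham. Spots with at least 5 Ptgds UMIs made up 24.2% of sham, 2.87% of I/R and 4.98% of SBP. For Dynll2 these shares were 21.5%, 2.61% and 8.82%. Spots rich in either transcript were thus rarer in I/R and SBP than in sham. All these shares depend on the level of the gene, so they are not independent of the choice of members.

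**Figure D2:**
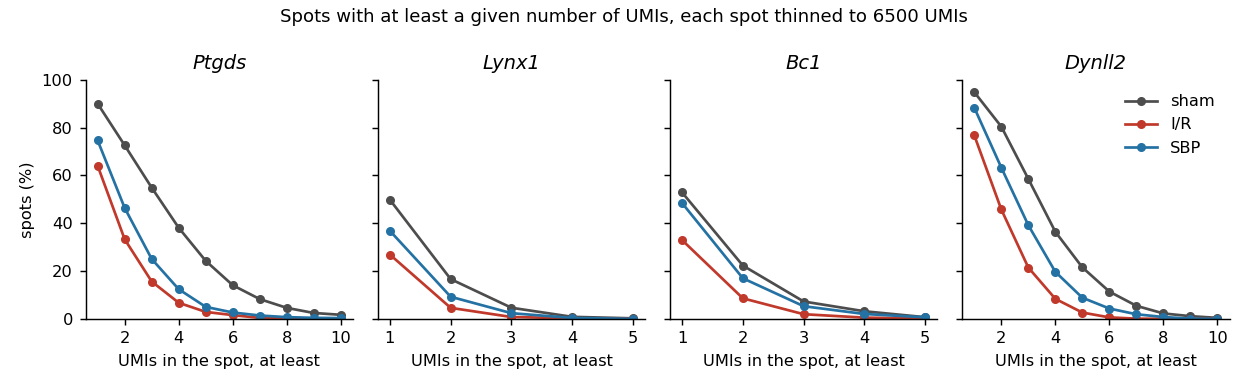
Percentage of spots (y axis) with at least the number of UMIs on the x axis, for each member in sham, I/R and SBP, after thinning each spot to 6500 UMIs. At 1 UMI, 89.96% of sham and 64.0% of I/R spots held Ptgds, and SBP lies between them at 1 to 3 UMIs for each member, while the curves of Lynx1 and Bc1 meet or cross at the highest numbers of UMIs, which few spots reach.

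The evenness over spots was described by the variance of the thinned UMIs over their mean, which is 1 for a Poisson count. In sham it was 1.72 for Ptgds, above 87.7% of the 260 genes within 2-fold of its mean, whose median was 1.17. Bc1 had 1.29, above 89.8% of 777 genes like it in mean. Dynll2 with 1.16 and Lynx1 with 1.09 stood near the middle, above 44.2% of 260 and 47.8% of 947 genes. The 1% of sham spots with most UMIs of a member held 4.00% of its UMIs for Ptgds, 5.75% for Lynx1, 5.84% for Bc1 and 3.20% for Dynll2. Ptgds and Bc1 were thus the less even members, but neither was concentrated in a few spots.

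Ankrd1, a cardiac ankyrin repeat protein induced in stressed cardiomyocytes, which the paper used to tell infarct from other areas, served to sort the spots. Its level was 879 CPM in sham against 1715 in I/R and 1367 in SBP. The threshold was the sham 95th percentile, 27.0 Ankrd1 UMIs per 10000 UMIs of the spot. Below it were 2122 of the sham spots, 1603 of the I/R spots (77.0%) and 1634 of the SBP spots (83.4%). The other 112 sham spots came from a heart without ligation, and low Ankrd1 does not show that a spot is free of injury. In these spots of low Ankrd1, Ptgds had 467 CPM in sham against 190 in I/R and 258 in SBP. Its log2 ratio of I/R over sham was -1.30 (-1.35 to -1.25), close to that of the whole section.

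The same held for the other members. With low Ankrd1, Lynx1 had 112, 54.1 and 81.2 CPM in sham, I/R and SBP, and a log2 ratio of I/R over sham of -1.05 (-1.15 to -0.95). Bc1 had 130, 61.4 and 110 CPM, and a ratio of -1.09 (-1.18 to -0.99). Dynll2 had 472, 247 and 353 CPM, and a ratio of -0.94 (-0.99 to -0.89). The low level in I/R was therefore not limited to spots with high Ankrd1. Of 846 genes with at least 100 CPM in either section of these spots, 0.709% were lower by 2-fold, among them Ptgds, Bc1 and Lynx1 at ranks 1, 3 and 4, and Dynll2 ranked 7. The spots of low Ankrd1 held 23273248 of the 25118258 sham UMIs and 22067134 of the 30238530 I/R UMIs. Since the members were chosen by the whole-section ratio, their ratios and ranks in these spots are not independent of the choice.

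In the 112 sham and 479 I/R spots at or above the threshold, the log2 ratio of I/R over sham was -1.35 (-1.48 to -1.23) for Ptgds and -1.02 (-1.33 to -0.70) for Lynx1. It was -0.88 (-1.09 to -0.66) for Bc1 and -0.86 (-0.99 to -0.72) for Dynll2. For each member this interval overlapped that of the spots below the threshold. With low Ankrd1, SBP over I/R had log2 ratios of 0.45 for Ptgds, 0.59 for Lynx1, 0.84 for Bc1 and 0.52 for Dynll2. None reached 2-fold, as 0.598% of 836 genes did. In spots of high Ankrd1, Bc1 had 136 CPM in SBP (125 to 148) and 133 in sham (117 to 151), which could not be told apart at this depth.

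Within a section the members differed in how they varied with Ankrd1. Lynx1 was lower in spots of high Ankrd1 than in the others of the same section, with log2 ratios of -0.74 in sham against -0.71 in I/R and -0.86 in SBP. Dynll2 was lower there too, by log2 ratios of -0.44, -0.36 and -0.41. Ptgds differed little, with -0.052 (-0.16 to 0.05), -0.11 (-0.19 to -0.02) and -0.11 (-0.21 to -0.01). Bc1 went the other way after ligation, with 0.03 (-0.16 to 0.22) in sham, 0.24 (0.10 to 0.38) in I/R and 0.31 (0.17 to 0.45) in SBP.

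Finer bins, which split the same spots and are no more independent of the choice of members, gave the same picture. With 6 bins of spots whose edges were the sham 20th, 40th, 60th, 80th and 95th percentiles of Ankrd1, every member was lower in I/R than in sham in 6 of 6 bins and higher in SBP than in I/R in 6 of 6. In I/R, Bc1 had 43.9 CPM in the lowest bin and 78.2 in the fifth, while Lynx1 had 72.6 in the lowest and 33.2 in the highest. In sham, Lynx1 also dropped, from 122 CPM in the lowest bin to 67.2 in the highest, whereas Bc1 stayed between 117 and 145. The log2 ratio of I/R over sham across the bins ranged from -0.96 to -0.86 for Dynll2, a narrower range than -1.53 to -0.88 for Bc1.

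**Figure D3:**
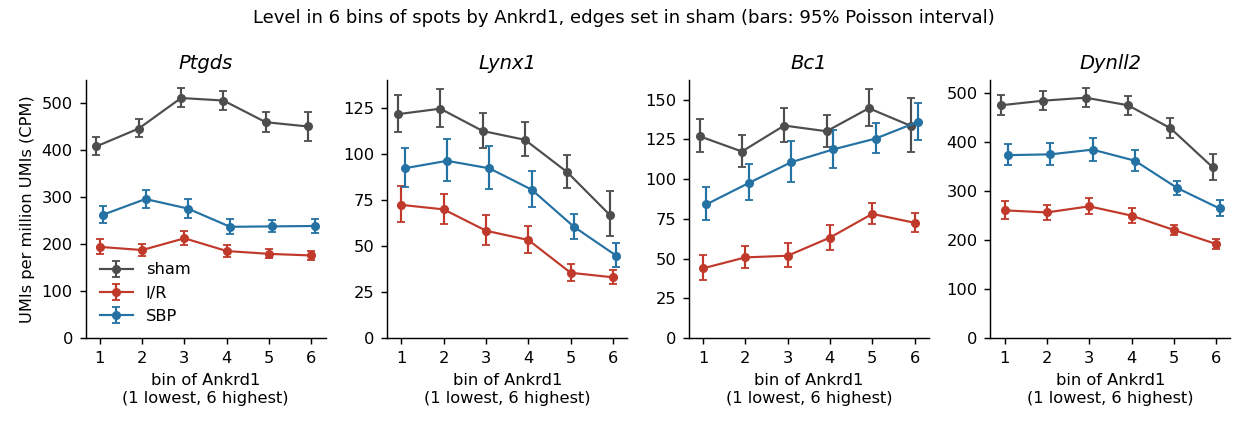
Level in CPM (y axes, each from 0) in 6 bins of spots by Ankrd1 per 10000 UMIs (x axis, edges set in sham), for the sham, I/R and SBP sections with 95% Poisson intervals. The I/R points lie under the sham points in all 6 bins for each member, and only Bc1 in SBP reaches the sham level, at 136 CPM in the highest bin.

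Marker lists separated the members further. The injury list holds 20 genes of inflammation and matrix repair, such as Timp1, Spp1 and Ccn2, and its summed level was 837 CPM in sham against 2815 in I/R and 1379 in SBP. In I/R, Ptgds had 62.1 CPM in the 209 spots highest in this list and 195 in the other spots, a log2 ratio of -1.65 (-1.92 to -1.39). Lynx1 had 17.3 and 50.6 CPM in the same spots, a ratio of -1.55 (-2.08 to -1.06). The corresponding ratios in sham were -0.29 (-0.38 to -0.21) for Ptgds and -0.65 (-0.85 to -0.45) for Lynx1, and in SBP -0.65 (-0.83 to -0.47) and -0.85 (-1.22 to -0.50). Both members were thus lower in injury-rich spots of every section, and for Ptgds the interval in I/R lay below those in sham and SBP. For Lynx1 the intervals in I/R and SBP overlapped.

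Bc1 and Dynll2 differed from them in these spots. In the injury-rich spots of I/R, Bc1 had 77.9 CPM against 63.5 elsewhere, a log2 ratio of 0.30 (0.05 to 0.53). It was also higher in the spots highest in the list in sham, by 0.36 (0.22 to 0.50), and in SBP, by 0.49 (0.29 to 0.68). Dynll2 had 203 CPM against 234 in I/R, a ratio of -0.21 (-0.35 to -0.06), with -0.23 in sham and -0.25 in SBP. Spots high in neutrophil markers, a list that shares S100a8 and S100a9 with the injury list, gave the same split in I/R. There the ratios were -1.38 for Ptgds, -1.57 for Lynx1, 0.68 for Bc1 and -0.13 (-0.28 to 0.02) for Dynll2. Leaving out spots high in Ankrd1 or in the injury list kept the log2 ratios of I/R over sham at -1.16 for Ptgds, -0.88 for Lynx1, -1.28 for Bc1 and -0.90 for Dynll2.

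The cardiomyocyte list gave the reverse order. In the 209 I/R spots highest in it, Lynx1 was higher than elsewhere by a log2 ratio of 0.46 (0.22 to 0.69), Ptgds by 0.43 (0.31 to 0.56) and Dynll2 by 0.28 (0.16 to 0.39). Bc1 was at -0.24 (-0.50 to 0.01). In sham the same comparison gave 0.35 for Lynx1, 0.21 for Dynll2, -0.29 for Ptgds and -0.38 for Bc1. Lynx1 and Dynll2 were thus higher in cardiomyocyte-rich spots of all 3 sections, Ptgds in I/R and SBP but not in sham, and Bc1 in none. Over all 2234 sham spots, however, Ptgds had a weak positive correlation with the list (Pearson r = 0.09, Spearman rho = 0.02). These values are shares of the UMIs of a spot, so a marker list that takes more of them leaves less for every other gene.

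**Figure D4:**
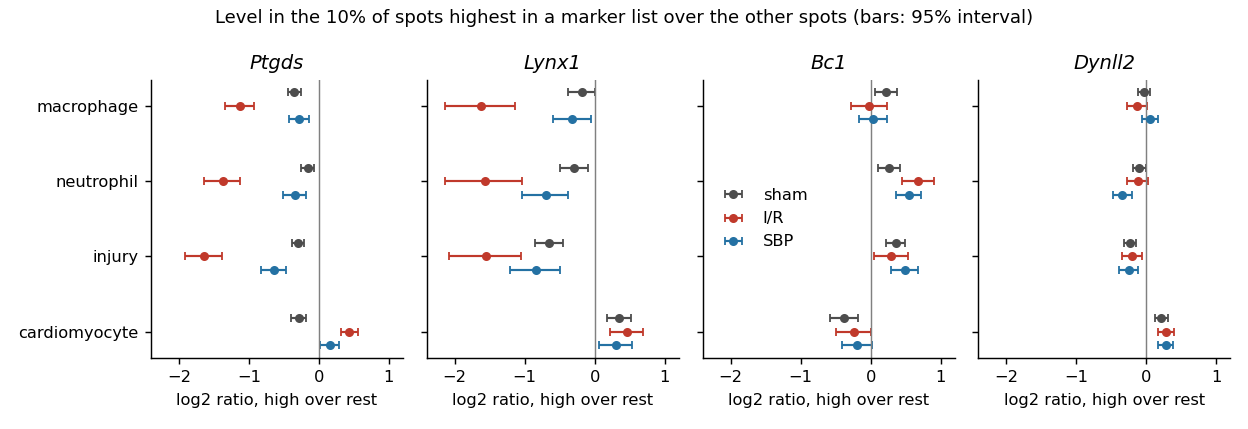
Log2 ratio (x axis) of each member's CPM in the 10% of spots highest in a marker list (y axis) over the other spots of the same section, with 95% intervals, for sham, I/R and SBP. Ptgds and Lynx1 in I/R lie near -1.65 and -1.55 for the injury list, while Bc1 lies right of 0 for it in all 3 sections.

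Neuronal and glial sources were checked by their markers, since Bc1 and Lynx1 are best known from neurons. Th and Slc18a3 had no UMI in any section, and the 14 neuron markers summed to 26.5 CPM in sham against 37.8 in I/R and 29.5 in SBP. The 10 Schwann cell markers summed to 84.8, 78.0 and 75.8 CPM, mostly Pmp22, which other cells also express. Bc1 was higher in the spots richest in neuron markers by a log2 ratio of 0.62 in I/R, 0.33 in sham and 0.27 in SBP. In I/R, spots rich in smooth muscle markers (0.63) or neutrophil markers (0.68) had Bc1 ratios of the same size, while macrophage-rich spots did not (-0.02). The part of neurons and glia in the levels of the members was not tested.

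Correlations over the 2234 sham spots were weak. The spots share a library and the counts are sparse, so these values are a description only. Among 3462 genes with at least 500 UMIs in sham, those most like Ptgds were Acta1 (r = 0.30), Mb (0.25) and the mitochondrial mt-Nd3 (0.22), mt-Nd1 (0.20) and mt-Co2 (0.20). Lynx1 was most like Fabp3 (0.16), Myl2 (0.15), Myh6 (0.15), Hrc (0.14) and Mb (0.14). Dynll2 was most like Mb (0.18), Myl2 (0.17), Fabp3 (0.15), Tcap (0.14) and Myh6 (0.13). These are mainly genes of the contractile apparatus and of fatty acid and oxygen handling in heart muscle. Bc1 had no such neighbours in sham, with Eef1a1 (0.12), Grn (0.12), Fxyd5 (0.10), Arhgdia (0.10) and Crip1 (0.10). Its neighbours were others in the injured sections. In I/R they were Xirp2 (0.24), Timp1 (0.22), Flnc (0.22), Rpsa (0.21) and Hsp90aa1 (0.19). In SBP they were Nppb (0.15), Ankrd1 (0.14), Rpl13a (0.14), Nppa (0.13) and S100a6 (0.13).

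Correlations between the members over spots were low. Counting error by itself keeps r low where the variance over mean is near 1, as for Lynx1 (1.09) and Dynll2 (1.16) in sham. The r values below therefore cannot show whether the members vary together. In sham the highest r between any pair was 0.09, for Ptgds and Bc1. In I/R, Ptgds and Lynx1 had an r of 0.14, and Bc1 had -0.03 with Ptgds and -0.09 with Lynx1.

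The light chain genes Dynll2 and Dynll1 differed between sections in opposite directions. Dynll1 had 54.5 CPM in sham (1369 UMIs) against 115 in I/R (3478 UMIs) and 70.8 in SBP (1532 UMIs). Its log2 ratio of I/R over sham was 1.08 (0.99 to 1.17), where that of Dynll2 was -0.998. For SBP over I/R it was -0.70 (-0.79 to -0.61) for Dynll1 and 0.54 for Dynll2. In both genes SBP lay between the other sections, 73.0% (66.0% to 80.1%) of the way from I/R to sham for Dynll1 and 45.5% for Dynll2.

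Of all UMIs of both light chain genes, Dynll1 gave 10.5% in sham (10.0% to 11.1%) against 33.1% in I/R (32.2% to 34.1%) and 17.3% for SBP (16.6% to 18.2%). Since it contains Dynll2, which was chosen for its fall from sham to I/R, this share is not independent of the choice of members. It does not depend on the scaling of the libraries, and UMIs count captured transcripts without regard to their length. It was 9.79%, 29.3% and 15.5% in spots of low Ankrd1 and 21.5%, 43.7% and 27.0% in those of high Ankrd1. The order of the sections was the same in both kinds of spot. The summed level of both genes was 518 CPM in sham against 347 in I/R and 408 in SBP, lower in I/R as Dynll2 was. In I/R, Dynll1 was higher in the injury-rich spots by a log2 ratio of 1.61 and lower in cardiomyocyte-rich spots by -1.10, opposite in sign to Dynll2 in both lists. Macrophage-rich spots of I/R had 284 CPM of Dynll1 against 102 elsewhere.

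**Figure D5:**
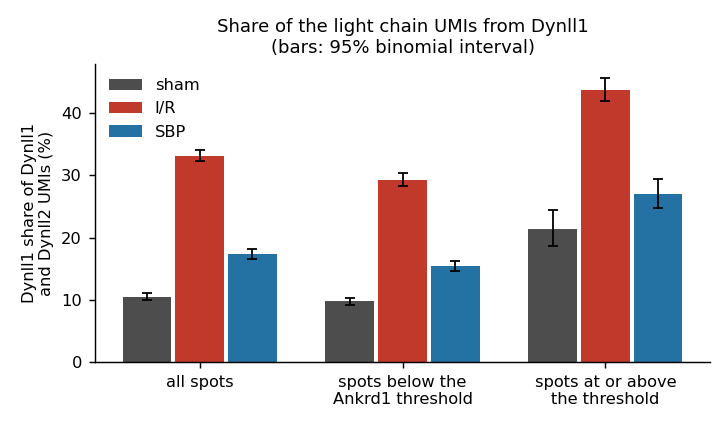
Share of Dynll1 among the UMIs of Dynll1 and Dynll2 (y axis, from 0) in the sham, I/R and SBP sections, for all spots and for spots below and at or above the Ankrd1 threshold, with 95% binomial intervals. In each kind of spot I/R is highest (33.1% over all spots) and sham lowest (10.5%). Dynll2 was chosen for its low I/R level, so this order is not independent of the choice.

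The members' pathways were described by fixed lists. Of 234 genes on 11 pathway lists, 162 had at least 50 UMIs in sham and I/R together, and 1 of these was lower in I/R by 2-fold or more while 20 were higher. Their median log2 ratio was 0.29. Over all 12231 genes with that many UMIs the median was 0.24, 0.523% were lower by 2-fold and 8.38% were higher. The share of listed genes lower by 2-fold was thus near that of all genes. At any size of difference 71.2% of all genes were higher in I/R and 28.8% lower, a balance that rests on the scaling. Median-of-ratios factors brought the median of all genes to 0.0041, with 6158 of the 12231 higher. Then 11 of the 162 listed genes were higher by 2-fold and 3 lower, namely Pla2g5, Apod and Malat1. Of all 12231 genes, 637 were then higher by 2-fold and 191 lower. Between SBP and I/R, 7 of 161 listed genes were lower in SBP by 2-fold and 2 higher, against 4.53% and 0.337% of all 12151 genes.

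Around Ptgds, the gene lower by 2-fold was Pla2g5, a secreted phospholipase that can release arachidonic acid, at 9.59 CPM in sham against 4.37 in I/R and 6.47 in SBP. Its log2 ratio of I/R over sham was -1.14 (-1.45 to -0.82) and so of the same size as that of Lynx1. Of the 21 genes of prostaglandin synthesis and breakdown with enough UMIs, 14 had higher values in I/R and 7 lower, with a median log2 ratio of 0.10 that became -0.13 with median-of-ratios factors. Ptgs2, the inducible cyclooxygenase, had 11 UMIs in sham against 144 in I/R and 32 in SBP, a log2 ratio of I/R over sham of 3.44. Pla2g4a, the cytosolic phospholipase A2, had a ratio of 1.39 and Tbxas1, thromboxane synthase, one of 1.11. Ptges3 and Ptgis, the latter the prostacyclin synthase, had 0.40 and 0.32. The lower ones included Hpgd, a dehydrogenase gene of prostaglandin breakdown, at -0.59 (-1.03 to -0.16). The reductase gene Ptgr2, also of breakdown, had -0.51 (-0.60 to -0.41). Prxl2b, whose product makes prostaglandin F and prostamide F, had -0.39 (-0.46 to -0.31). The other prostaglandin D synthase, Hpgds, stayed at 1.67, 1.65 and 1.53 CPM. Of the receptors for prostaglandin D2, Ptgdr had no UMI in any section, where 3 UMIs would be 0.0992 to 0.139 CPM, and Ptgdr2 had 1 in I/R.

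Among lipocalins and lipid carriers, 1 of 9 genes, Rbp4, was higher in I/R by 2-fold and none lower, although Apod passed 2-fold lower with median-of-ratios factors. Fabp3, the fatty acid binding protein of heart muscle, had 4179 CPM in sham against 2820 in I/R and 3415 in SBP, in the order of the members with a smaller log2 ratio of -0.57. Lcn2, a lipocalin of acute inflammation, had 73.9, 84.4 and 123 CPM.

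Around Lynx1, 9 of 32 other Ly6 family genes had enough UMIs, and none was lower by 2-fold in I/R. Ly6c2, a marker of inflammatory monocytes, was higher by a log2 ratio of 2.82 and Plaur, the urokinase receptor, by 1.89. Ly6a and Ly6e, which had the most UMIs of the list, had ratios of 0.27 and 0.40. The receptors that Lynx1 acts on were scarcely seen. Of the nicotinic subunits, Chrnb1 had 35, 77 and 39 UMIs in sham, I/R and SBP, and Chrna7 1, 1 and 0. The muscarinic receptor Chrm2, which slows the heart, had 19.5 CPM in sham against 21.7 in I/R and 27.7 in SBP.

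Around Bc1, none of 24 genes of the RNA polymerase III machinery differed by 2-fold between I/R and sham. Of these genes 23 were higher in I/R, with a median log2 ratio of 0.43, against 71.2% of all genes with a median of 0.24. With median-of-ratios factors 18 were higher and the median was 0.19, against 6158 of all 12231 genes and a median of 0.0041. Of 19 translation factors linked to BC1 RNA, 2 were higher by 2-fold, the poly(A)-binding protein gene Pabpc1 by a log2 ratio of 1.04 and the helicase gene Eif4a1 by 1.09, and both had negative SBP over I/R ratios of -0.64 and -0.49. Of 26 other long non-coding RNAs, 6 were higher by 2-fold, among them the snoRNA host genes Gas5 (1.08) and Snhg6 (1.09), and none was lower by 2-fold. With median-of-ratios factors neither translation factor reached 2-fold, and 2 of these RNAs were higher by 2-fold and 1 lower. Of all 12231 genes 637 were then higher by 2-fold and 191 lower. Malat1 came closest to Bc1, with a log2 ratio of I/R over sham of -0.88 (-0.92 to -0.84).

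Around Dynll2, 11 of 12 other subunits of cytoplasmic dynein were higher in I/R than in sham, with a median log2 ratio of 0.32, close to the 0.24 of all genes. With median-of-ratios factors 8 were higher, with a median of 0.084, and Dynll1 was under 2-fold. Of all 12231 genes 6158 were then higher, which applies to the dynactin list below as well. Apart from Dynll1, those past 2-fold were Dynlt1a, Dynlt1c and Dynlt1f, which are near-identical copies whose reads may be shared. The heavy chain gene Dync1h1 had 89.3 CPM in sham against 112 in I/R and 104 in SBP. Of 20 genes of dynactin and dynein adaptors, 18 were higher in I/R, or 11 with median-of-ratios factors, and none differed by 2-fold, and the lowest was Hook1 at -0.71 (-1.03 to -0.39). Among 13 partners of the LC8 light chains, Pak1 and Tnfaip3 were higher by 2-fold, with log2 ratios of 1.95 and 1.12, and none was lower by 2-fold. With median-of-ratios factors 1 of these partners was higher by 2-fold.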

How the data were processed

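Visium libraries of 1 sham, 1 I/R and 1 SBP section were analysed, with the group of each taken from its labels. The authors deposited unnormalized counts of UMIs per gene and spot over tissue. The submitters' processing notes name Space Ranger 1.3.0 and mm10, while the paper states another version and a human reference. The files list 32285 mouse genes, of which 32235 identifiers were found in GENCODE M21 (GRCm38), the source of positions and sequences. Single-nucleus libraries were not analysed here.

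The members, the gene lists and the tests were chosen with earlier results of these data known. A spot was kept if at least 200 genes were detected in it. Levels are UMI sums over kept spots relative to their total. Intervals were exact Poisson for a level, exact conditional binomial for a ratio and Clopper-Pearson for a share. They cover counting error only. The share of the gap used the error of the levels. Spots were thinned with a fixed seed, no clustering was done and doublets were not called, since spots hold several cells. Named genes were the members, Dynll1, Ankrd1, the 5 genes most like each member over sham spots, and list genes past 2-fold or among the 4 highest in sham, of which the text gives a part. For Bc1, the 5 genes most like it over I/R and over SBP spots were named as well. Some list genes outside this rule, such as Hpgd, Hpgds and Hook1, were also named. The alternatives are given in the closing section. The tools were Python 3.11.15 with pandas 2.3.3, scipy 1.17.1, numpy 2.4.6 and matplotlib 3.10.9, and edgeR 4.0.16 in R 4.3.3 for TMM factors.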

Additional observations from a re-analysis of the deposited data

How the results depend on the processing

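Each list of 4 log2 ratios below is in the order Ptgds, Lynx1, Bc1 and Dynll2. Across the alternatives run, all 184 recomputed ratios of the members kept their sign, 92 stayed within the counting interval of the reported value and 92 did not. The cause of the shifts was not tested, except that a scaling moves all genes alike: median-of-ratios factors shifted every I/R over sham ratio by -0.24, SBP over I/R by 0.16 and SBP over sham by -0.075.

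For I/R over sham, the ratios were -1.44, -1.28, -1.13 and -1.11 without mitochondrial genes in the denominator, -1.55, -1.40, -1.25 and -1.23 with TMM factors, and -1.56, -1.40, -1.26 and -1.24 with median-of-ratios factors. They were -1.41, -1.28, -0.87 and -0.99 with equal weight for each spot, -1.01, -1.10, -0.90 and -0.86 in spots of a common range of UMI totals, and -0.91, -0.75, -0.61 and -0.59 per UMI of the cardiomyocyte list, an alternative chosen after seeing the data. For SBP over I/R, the same 6 settings gave 0.51, 0.68, 0.88 and 0.59, then 0.61, 0.78, 0.99 and 0.70, then 0.62, 0.79, 0.99 and 0.70, then 0.49, 0.72, 0.71 and 0.54, then 0.19, 0.74, 0.61 and 0.41, and last 0.18, 0.35, 0.55 and 0.27. For SBP over sham they gave -0.93, -0.60, -0.25 and -0.52, then -0.94, -0.61, -0.26 and -0.53, then -0.95, -0.62, -0.26 and -0.53, then -0.92, -0.56, -0.15 and -0.45, then -0.82, -0.37, -0.29 and -0.45, and last -0.73, -0.41, -0.053 and -0.32.

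In spots of low Ankrd1, I/R over sham was -1.26, -0.88, -1.27 and -0.89 below the sham 75th percentile, -1.22, -0.81, -1.42 and -0.90 below the sham median, -1.16, -0.93, -1.22 and -0.94 with the injury list in place of Ankrd1, and -1.16, -0.88, -1.28 and -0.90 below both thresholds. It was -1.39, -1.14, -1.17 and -1.02 without mitochondrial genes, -1.54, -1.29, -1.32 and -1.17 with median-of-ratios factors, and -0.96, -0.71, -0.75 and -0.60 per UMI of the cardiomyocyte list. SBP over I/R there was 0.48, 0.53, 0.96 and 0.52, then 0.55, 0.48, 1.07 and 0.55, then 0.33, 0.45, 0.999 and 0.52, and then 0.34, 0.48, 1.01 and 0.51 for the same 4 choices of spots, 0.61, 0.75, 0.999 and 0.68 with median-of-ratios factors, and 0.21, 0.35, 0.60 and 0.29 per UMI of the cardiomyocyte list. Bc1 thus passed 2-fold in SBP over I/R under the median and the combined threshold.

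Among the pathway lists, median-of-ratios factors left 2, 0 and 1 genes past 2-fold higher in I/R, from 6, 2 and 2, for long non-coding RNAs, translation factors and LC8 partners. Of all 12231 genes, 637 were then past 2-fold higher.

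No paired analysis was possible because no condition has more than 1 section and the labels give no replicate numbers. With 1 section per condition, differences between mice, between planes of section and between conditions cannot be told apart. A level of 48.4 CPM, the lowest of a member, rested on 1465 UMIs.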
